A study of Mus musculus with 15 samples.

Results

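Ribosomal proteins and translation factors were read from every probe set on the 4 gene lists deposited by the authors whose symbol begins with Rpl, Rps, Mrpl, Mrps, Eif or Eef, either as printed in the list or as the current symbol of its Entrez gene. The rule found 122 probe sets of 97 genes among the 22690 probe sets of the array, of which 2416 carried a name through the lists. They fell into 66 for proteins of the cytosolic ribosome (33 Rpl and 33 Rps), 30 for the mitochondrial ribosome (20 Mrpl and 10 Mrps), 23 for initiation factors (Eif), 2 for elongation factors (Eef2 and Eef1d) and 1 for Eef1akmt1, which is no elongation factor but an enzyme known in human cells to methylate one. Of the 122, 13 were found through the current symbol alone. All 122 stand on a list of the bud comparison, 27 on the list of higher and 95 on the list of lower signal in buds labelled PTHrP-/-, and 9 of them also stand on a skin list.

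The embryos were CD-1 mice of embryonic day 15, and their RNA was hybridised to 15 Affymetrix MOE430A arrays. Mammary buds gave 2 groups, wild-type (WT) and labelled PTHrP-/-. Ventral skin gave 3 groups, WT, labelled K14WT and labelled K14-PTHrP, and each of the 5 groups had 3 arrays. PTHrP, the product of Pthlh, is a secreted peptide that the epithelium of the mammary bud makes, and the keratin 14 promoter is active in basal keratinocytes. The label PTHrP-/- reads as loss of both alleles, and the labels describe K14WT skin as WT skin that served in the comparison with K14-PTHrP. Each RNA sample was a pool of tissue from embryos with the same genotype, with 120 buds on average for about 20 ug of RNA. Since no label tells whether arrays of a group are separate pools, p-values reflect only the spread between these samples, and that may be technical.

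The cytosolic ribosome joins a small subunit, whose proteins are named Rps, with a large subunit, whose proteins are named Rpl. Mitochondria keep a ribosome of their own, with nuclear-encoded Mrps and Mrpl proteins, for the few proteins encoded in mitochondrial DNA. Initiation factors bring the messenger RNA, the small subunit and the first transfer RNA together, and elongation factors move the ribosome along the message. Many ribosomal protein genes have near-identical processed copies elsewhere in the genome. A probe set ending in _x_at holds probes that can match other transcripts too. The 26 such members (11 Rpl, 12 Rps, 1 Mrpl and 2 Eif) are therefore given apart from the other 96, and their signal may come from more than 1 transcript.

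Values are GC-RMA levels on a log2 scale, as deposited, and differences are of group means in log2 units with the standard error (SE) of a limma fit over all 15 arrays, 3 arrays per group. A probe set was tested if 3 or more of the 15 arrays held it above their median. That left 11690 probe sets, 120 members among them, of 95 genes. Mrpl55 and Mrps23, each with 1 probe set, were too dim in every group. The adjusted p is Benjamini-Hochberg over the 11690, with a threshold of 0.05. Every member was chosen through the bud comparison. That comparison, and the comparison of WT skin with WT buds, which uses the same WT bud arrays, are therefore described without a test. The differences between the K14-PTHrP and K14WT labels used no array of the rule, and that comparison was tested. So was K14WT against WT skin, for the 111 tested members that are on no skin list. In both, however, SE and p-values draw on scatter within all 5 groups, bud groups included, and the members were picked on bud arrays. Neither test is therefore fully independent of the choice of members.

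Pthlh did not follow the labels. Its probe set read 4.87, 5.85 and 5.57 in WT buds and 6.81, 6.28 and 6.11 in buds labelled PTHrP-/-, and it read 4.38, 3.86 and 4.23 in skin labelled K14WT and 3.60, 3.64 and 3.39 in skin labelled K14-PTHrP. Thus Pthlh was higher on every array labelled PTHrP-/- than on any WT bud array, and lower on every array labelled K14-PTHrP than on any labelled K14WT. Whether the probes lie in the deleted part of the gene or match the transgene is stated by no source used here. The directions below are those of the labels. In 123 probe sets, Rpl30 among the members, the 3 WT skin arrays stood more than 1 log2 unit above or below all 12 other arrays. Results that rest on them are given with and without.

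**Figure D1:**
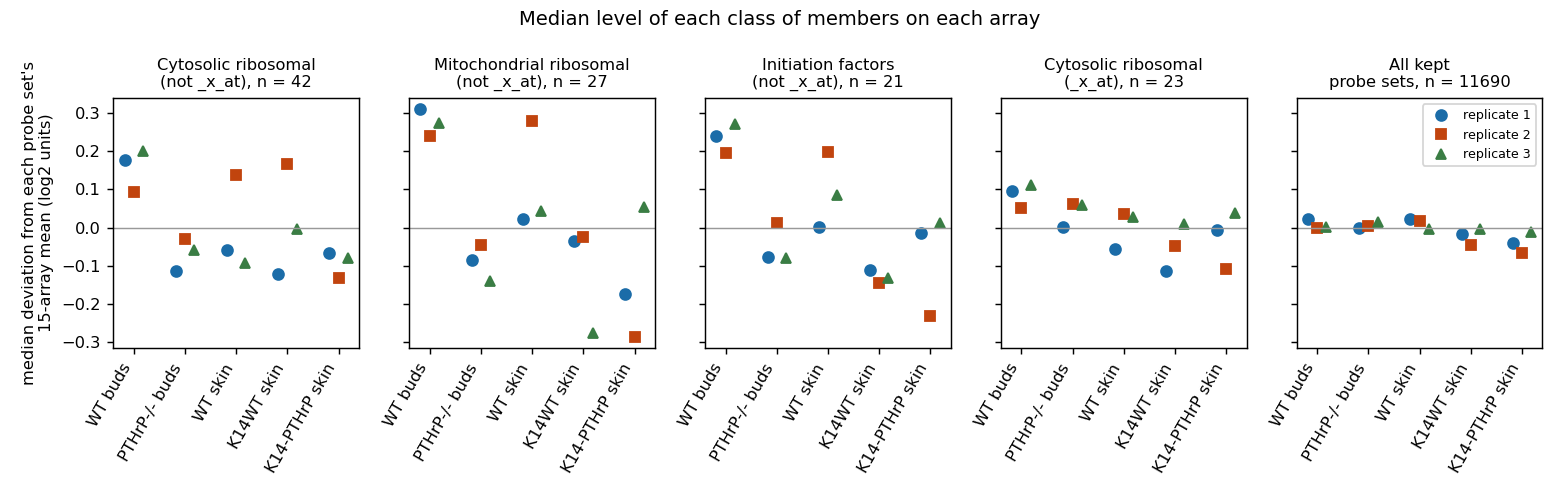
Median over the members of each class, and over all 11690 tested probe sets, of the deviation from the probe set's own mean over the 15 arrays (log2 units, vertical axis), for each array of the 5 groups (horizontal axis); symbols mark the replicate number, and Rpl30 is left out. WT bud arrays stand at 0.09 or above in the 3 classes without _x_at probe sets, and replicate 2 of WT skin stands with them, while the medians of all probe sets stay between -0.07 and 0.02.

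In buds labelled PTHrP-/- the members other than _x_at lay mostly below WT buds, with a median difference of -0.31 over 94 probe sets against -0.03 over all tested probe sets, 54% of which lay below 0. The median was -0.23 for the cytosolic ribosome (8 above and 35 below 0 of 43), -0.36 for the mitochondrial ribosome (1 above and 26 below of 27) and -0.36 for the initiation factors (5 above and 16 below of 21). The 23 _x_at probe sets of the cytosolic ribosome split into 12 above and 11 below 0, with a median of 0.23. These values describe the choice of members. In 116 of 120 the arrays of the groups did not overlap, against 32.2% of all tested probe sets. In limma 0 members were past the adjusted threshold (0.0342% of all tested probe sets) and 80 had an unadjusted p under 0.05 (14.1%). These counts restate the choice and are no test of the members. In RNA from whole tissue, fewer cells of a type and less RNA per cell cannot be told apart.

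Marker levels moved with this comparison. The mean level of 7 named skeletal muscle markers (of 10 listed) ran from 9.77 to 9.88 on the WT bud arrays and from 9.26 to 9.52 on those labelled PTHrP-/-. That of 3 keratinocyte markers (of 5) ran from 10.41 to 10.64 and from 10.09 to 10.20, and that of 7 bud epithelium markers (of 8) from 7.57 to 7.82 and from 7.24 to 7.43. Pthlh is 1 of these 7 and by itself went the other way, as given above. These 3 sets did not overlap between the groups, but their genes are named only because they stand on a list. The 5 dermal fibroblast markers (of 8) ran from 10.78 to 11.09 and from 11.01 to 11.14. A 5′ to 3′ measure of the RNA, the level of the 3′ minus that of the 5′ control probe set of Gapdh, was 0.996, 1.03 and 0.719 in WT buds and 1.41, 1.29 and 0.667 in buds labelled PTHrP-/-. A control probe set for the middle part of 18S ribosomal RNA ran from 8.62 to 9.10 and from 9.22 to 9.74, without overlap. Those for its 3′ and 5′ parts did overlap. The 3′ one ran from 8.39 to 9.23 and from 8.80 to 9.96, and the 5′ one from 9.43 to 10.40 and from 9.59 to 11.39. The part of cell makeup and RNA quality in the members' levels was not tested.

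The members furthest below WT buds belonged to the small subunit of the mitochondrial ribosome. Mrps35 read 8.0, 7.67 and 7.79 in WT buds and 7.17, 6.90 and 7.28 in buds labelled PTHrP-/-, giving a difference of -0.70 ± 0.19, and the groups did not overlap. Its authors' listed fold was the largest of the lower members, 1.63. Mrps35 lies on chromosome 6 with Pthlh, and only 2 protein-coding genes stand between them in the RefSeq annotation of GRCm38.p6, against 457 or more for the other 4 members on that chromosome (Mrps25, Mrps33, Mrpl35 and Mrpl53). The part of this position in the level of Mrps35 was not tested. Mrps25 read 7.90, 7.73 and 7.88 against 7.33, 7.35 and 6.90, a difference of -0.65 ± 0.26. Between K14WT and WT skin, Mrps35 and Mrps25 were also among the 6 largest falls without overlap. All 9 tested Mrps probe sets lay below WT buds without overlap. All 9 are on the list of lower signal, which set their direction. Of all 120 tested members, 116 did not overlap in this comparison, against 32.2% of all tested probe sets, so this is no trait of the Mrps members. Among Mrpl members, Mrpl43, a protein of the large mitochondrial subunit, read 7.72, 8.06 and 8.41 against 7.52, 7.39 and 7.50, a difference of -0.59 ± 0.22 in which 1 WT array, replicate 3, stood highest.

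Both elongation factors lay below WT buds. Eef2, which moves the ribosome by 1 codon, read 12.70, 12.54 and 12.56 in WT buds and 12.10, 12.23 and 12.10 in buds labelled PTHrP-/-, giving a difference of -0.46 ± 0.14. Eef1d, a subunit of the exchange factor that recharges eEF1A, read 11.26, 11.25 and 11.30 against 10.88, 10.96 and 10.82, a difference of -0.38 ± 0.13. In both the WT bud arrays were close together and above all 3 others. Eef1akmt1 read 6.15, 6.17 and 6.11 against 5.91, 5.68 and 5.03, a difference of -0.60 ± 0.18, and its replicate 3 labelled PTHrP-/- was the lowest of all 15 arrays.

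The 2 members furthest above WT buds without overlap were _x_at probe sets. Rps21 (1439415_x_at), a small subunit protein, read 7.35, 6.99 and 6.99 in WT buds and 8.16, 7.82 and 8.04 in buds labelled PTHrP-/-, giving a difference of 0.90 ± 0.36. Its skin arrays did not hold together, since it read 8.16, 6.84 and 8.21 in WT skin and 7.95, 6.84 and 8.16 in skin labelled K14WT, with replicate 2 near WT buds in each. The other Rps21 probe set (1433549_x_at) differed by 0.25. Rpl37 (1434872_x_at), a large subunit protein, read 13.44, 13.55 and 13.22 against 13.97, 13.83 and 14.09, a difference of 0.56 ± 0.18, again without overlap. Of members that are not _x_at, Rpl39l, a paralog of Rpl39, read 7.47, 7.27 and 7.39 against 7.98, 7.68 and 7.73, a difference of 0.42 ± 0.18. Of the authors' list of higher signal, _x_at probe sets made up 13 of the 27 members (48.15%) and 152 of all 639 entries (23.8%). Of the list of lower signal they made up 13 of 95 members (13.7%) and 85 of all 1484 entries (5.73%).

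**Figure D2:**
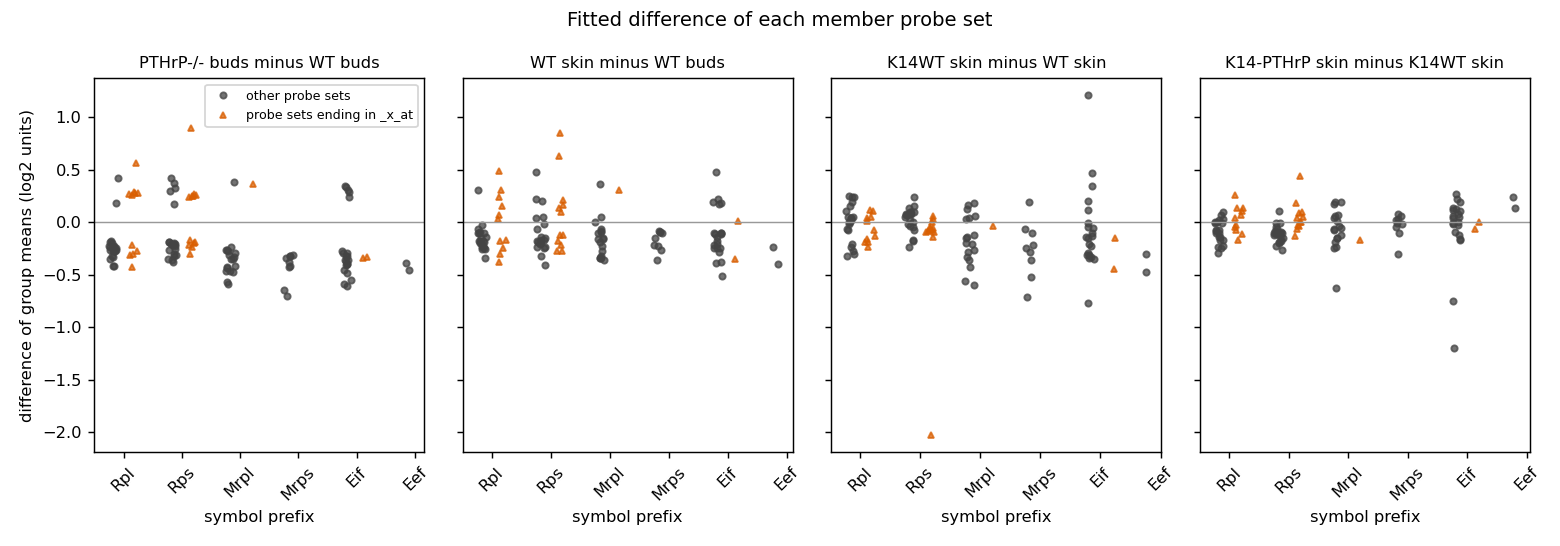
Difference of group means (log2 units, vertical axis) of each tested member in the 4 comparisons, by symbol prefix (horizontal axis); grey points are probe sets other than _x_at, orange triangles _x_at probe sets, and Rpl30 and Eef1akmt1 are left out. In the bud panel no member lies near 0, because the members were chosen there; in skin labelled K14-PTHrP against K14WT most lie within 0.3 of 0, and those outside are 2 Eif4a1 probe sets at -1.20 and -0.75, Mrpl9 at -0.62, Mrps33 at -0.30 and the Rps9 probe set at 0.44.

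Messenger RNAs of ribosomal proteins are known for a run of pyrimidines at their first base, the 5′ terminal oligopyrimidine tract, through which mTORC1 signalling controls their translation. The windows below, from RefSeq on GRCm38.p6, run from 10 bases before the annotated start to 20 bases from it, on the transcribed strand. They are shown as examples of members whose start holds this run and of members whose start does not. Capitals mark a C at the start followed by at least 4 bases that are each C or T, read on the transcribed strand only. Where none are in capitals the start holds no such run. Rps21 has another annotated start, with its window at chr2:180257439-180257468, that holds no such run.
Rpl35, chr2:39005112-39005141, minus strand: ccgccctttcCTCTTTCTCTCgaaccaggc
Rps6, chr4:86857348-86857377, minus strand: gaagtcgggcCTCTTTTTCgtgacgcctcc
Rps18, chr17:33955646-33955675, minus strand: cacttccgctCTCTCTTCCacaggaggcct
Rps21, chr2:180257369-180257398, plus strand: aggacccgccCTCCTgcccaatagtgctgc
Eif3f, chr7:108934405-108934434, plus strand: tctaggctctCTCTCTTTCTCggcaagatg
Eif4a1, chr11:69672404-69672433, minus strand: gtaacgtcacgtcgagttgcagagcgccgg
Mrps25, chr6:92184004-92184033, minus strand: gcctcccaagattcccggagccgcgctggt

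RefSeq start windows were matched for 75 of the 97 genes, 83 windows in all. The run stood at 8 of 38 starts of the cytosolic ribosomal members (21.05%), in Rpl15, Rpl28, Rpl35, Rps10, Rps15a, Rps18, Rps21 and Rps6. It stood at 1 of 15 starts of the initiation factors, that of Eif3f, and at 0 of 29 of the mitochondrial ribosomal members. Over all 32851 RefSeq windows the share was 2.51%. An annotated start can lie some bases from the true one. Of the 27025 genes with a window, 19586 had a first listed start equal to either outer coordinate of the gene in the same annotation. A missing run therefore says only that these letters are not at the annotated base.

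In skin labelled K14-PTHrP against skin labelled K14WT, none of the 120 members passed the test, against 0.71% of all tested probe sets. The smallest adjusted p was 0.293 (limma). At an unadjusted p under 0.05, 6 members were lower and 0 higher, against 11.8% of all tested probe sets in either direction (4.91% lower). The arrays did not overlap in 9 members, lower in all 9, against 11.3% in either direction (6.6% lower). The SE of a member ran from 0.08 to 0.41, with a median of 0.13. The median difference over the members was -0.04 and over all tested probe sets -0.01.

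The cytosolic ribosomal members other than _x_at lay mostly below 0 here, by little. Of 43, 37 were lower and 6 higher, against 51.5% lower over all tested probe sets, and the median was -0.10. Among the Rps members 20 of 21 were lower, and among the Rpl members 17 of 22. The median of the 43 moved to -0.17 without K14WT replicate 1 and to -0.03 without K14WT replicate 2, and after median centring it was -0.03 with 29 of 43 lower. The 23 _x_at probe sets had 13 above and 10 below 0, with a median of 0.04. The mitochondrial ribosomal members had 11 above and 16 below, with a median of -0.04 that turned to 0.03 under median centring. The initiation factors had 12 above and 9 below, with a median of 0.04 that was -0.00 under quantile normalization. The mean level of the 3 keratinocyte markers ran from 9.68 to 9.97 in skin labelled K14WT and from 9.98 to 10.34 in skin labelled K14-PTHrP. The 5 dermal fibroblast markers ran from 11.49 to 11.68 and from 10.95 to 11.43, and 3 leukocyte markers (of 5) from 7.02 to 7.24 and from 7.42 to 7.68. These 3 sets did not overlap between the groups, and their part in these values was not tested.

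Rpl23a, a large subunit protein near the exit of the peptide tunnel, read 13.65, 13.79 and 13.75 in skin labelled K14WT and 13.51, 13.55 and 13.26 in skin labelled K14-PTHrP. All 3 arrays of the second group lay below the first, a difference of -0.29 ± 0.10 with an adjusted p of 0.293 in the limma fit. Rpl12, a protein of the stalk base of the large subunit, read 12.69, 12.91 and 12.73 against 12.60, 12.54 and 12.49, a difference of -0.23 ± 0.09 (limma adjusted p = 0.368). Rps7 read 12.95, 13.10 and 13.01 against 12.81, 12.94 and 12.51, a difference of -0.27 ± 0.14 in which replicate 3 of K14-PTHrP carried the lowest value and the groups parted by 0.01. The 9 members without overlap also included Rps13, Rps18, Rps26, Mrpl20 and Mrpl9.

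Mrpl9, a large subunit protein of the mitochondrial ribosome, was the mitochondrial member furthest from 0. It read 7.12, 7.75 and 7.32 in skin labelled K14WT and 6.46, 7.05 and 6.80 in skin labelled K14-PTHrP, a difference of -0.62 ± 0.21 (limma adjusted p = 0.293). Its 3 K14-PTHrP arrays were all lower than the K14WT arrays. Over the 25 alternatives run for it, its adjusted p stayed between 0.111 and 0.81. Mrpl20 read 8.60, 8.85 and 8.59 against 8.59, 8.45 and 8.26, a difference of -0.25 ± 0.10 (limma adjusted p = 0.389) in which the nearest arrays of the groups differed in the second decimal.

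Several members read much higher on K14-PTHrP replicate 3 than on its other replicates. Mrps25 read 6.73, 6.40 and 7.78, and Eif3d, a subunit of the eIF3 complex, read 9.43, 9.33 and 9.99. Eef1d read 10.61, 10.43 and 11.03, and Mrps35 read 6.91, 6.76 and 7.58. In each of the 4 this array lay nearer the WT skin level than to its own group. The same array had a Gapdh 3′ minus 5′ difference of 1.19, against 0.30 and 0.44 on the other arrays of its group, and its part in the members' levels was not tested. Without this array 0 members passed in the K14-PTHrP comparison as well.

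Eif4a1, the RNA helicase of the cap-binding complex, had the widest differences of all members between skin labelled K14-PTHrP and skin labelled K14WT, and its 3 probe sets disagreed. Probe set 1430980_a_at read 10.62, 12.36 and 12.18 in skin labelled K14WT and 10.86, 10.70 and 9.998 in skin labelled K14-PTHrP, a difference of -1.20 ± 0.41 (limma adjusted p = 0.293). Probe set 1427058_at read 10.22, 11.47 and 11.28 against 10.35, 10.13 and 10.25, a difference of -0.75 ± 0.26 (limma adjusted p = 0.293). In both, K14WT replicates 2 and 3 were higher than all other arrays of the study, and K14WT replicate 1 lay inside the range of the K14-PTHrP arrays. Without K14WT replicate 1 the differences were -1.75 and -1.13 with adjusted p of 0.0180 and 0.00627 in limma, and these were the only alternatives of 24 in which either passed. Probe set 1434985_a_at read 10.75, 10.77 and 11.02 against 11.16, 10.65 and 11.29, a difference of 0.19 ± 0.14 with groups that overlapped. In the buds the first and second stood on the authors' list of lower signal (listed folds 1.48 and 1.52) and the third on the list of higher signal (1.18).

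**Figure D3:**
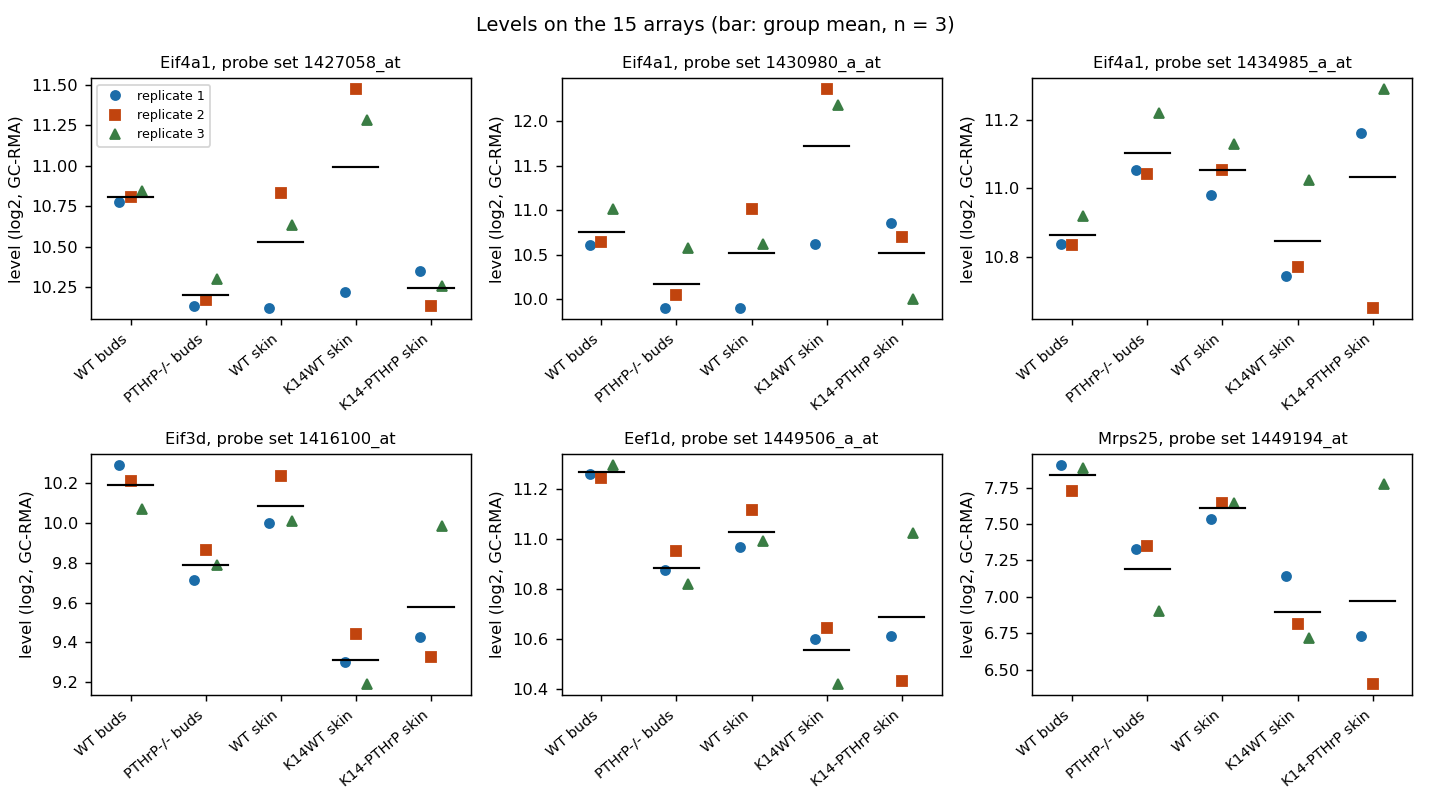
Level (log2, GC-RMA, vertical axis) of the 3 Eif4a1 probe sets and of Eif3d, Eef1d and Mrps25 on each array of the 5 groups; symbols mark the replicate number and bars the mean of 3 arrays. K14WT replicates 2 and 3 stand above all other arrays in the first and second Eif4a1 panels, and K14-PTHrP replicate 3 stands above its group in the Eif3d, Eef1d and Mrps25 panels.

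The labels describe both K14WT skin and WT skin as skin of WT embryos, and the groups differed in 7.37% of all tested probe sets. Among the 111 tested members on no skin list, 4 passed: Rpl30 was higher and Eif3d, Mrpl16 and Eef1d were lower in skin labelled K14WT. Over all tested probe sets 1.39% were called higher and 5.98% lower. At an unadjusted p under 0.05, 2 members were higher and 17 lower, against 6.31% and 19.1% of all tested probe sets (25.4% together). The arrays did not overlap in 3 higher and 21 lower members, against 9.61% and 21.4% (31% together). The median over the initiation factors was -0.15 (5 above and 16 below 0 of 21) and over the mitochondrial ribosomal members -0.21 (7 above and 20 below of 27), against -0.05 over all tested probe sets, 56.4% of which lay below 0. Under quantile normalization the mitochondrial median was -0.06. The cytosolic ribosomal members had a median of 0.04, which turned to -0.02 under median centring and to -0.06 without K14WT replicate 2. The control probe set for the middle part of 18S ribosomal RNA ran from 6.90 to 7.63 in WT skin and from 9.27 to 10.91 in skin labelled K14WT. The keratinocyte markers ran from 10.11 to 10.25 and from 9.68 to 9.97, and the leukocyte markers from 7.39 to 7.69 and from 7.02 to 7.24. None of the 3 overlapped between the groups, and their part in these differences was not tested.

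Eif3d fell in skin labelled K14WT. It read 10.001, 10.24 and 10.01 in WT skin and 9.30, 9.44 and 9.19 in skin labelled K14WT, a difference of -0.77 ± 0.15 (limma adjusted p = 0.00830), and it passed in all 25 alternatives (adjusted p 0.000312 to 0.0446). WT buds read 10.29, 10.21 and 10.07, so WT skin lay with WT buds and skin labelled K14WT below both. Eef1d read 10.97, 11.12 and 10.996 against 10.60, 10.65 and 10.42, a difference of -0.47 ± 0.13 (limma adjusted p = 0.0426) that passed in 8 of 25 alternatives, with adjusted p up to 0.150. Mrpl16 read 8.60, 8.55 and 8.18 against 7.96, 7.81 and 7.86, a difference of -0.56 ± 0.15 (limma adjusted p = 0.0421) that passed in 10 of 25, with adjusted p up to 0.139. In both the groups did not overlap. Leaving out any 1 of the 3 PTHrP-/- or 3 WT bud arrays was enough to move the adjusted p of each above 0.05, in a fit that takes the spread from all arrays.

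Rpl30 and Rps9 stood out through WT skin. Rpl30 (1418273_a_at), a large subunit protein, read 5.48, 5.46 and 5.18 in WT skin and between 12.38 and 12.88 on the 12 other arrays. Its difference of 7.21 ± 0.11 between K14WT and WT skin rests on the WT skin values that were set apart above. Without those probe sets 2 of the 111 members passed, both lower, and the adjusted p of Eef1d was 0.0505. Rps9 (1434624_x_at, listed under an older clone name) is on a skin list, so its values are a description. It read 12.09, 11.23 and 12.44 in WT skin, 10.11, 9.21 and 10.37 in skin labelled K14WT and 10.12, 10.47 and 10.41 in skin labelled K14-PTHrP. All WT skin arrays lay above all K14 arrays, a difference of -2.02 ± 0.29 between K14WT and WT skin, and replicate 2 was the lowest of its group in both.

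In WT skin the members mostly lay below WT buds, at a median of -0.17 over 120 against 0.01 over all tested probe sets, with 27 above and 93 below 0 (47.1% of all tested probe sets lay below). The adjusted threshold was passed by Rpl30 alone, and by none without the set-apart probe sets, against 1.83% of all tested probe sets. The arrays did not overlap in 41 members, against 18.8%. This comparison shares the 3 WT bud arrays through which the members were chosen, so its direction is no independent sign. The bud epithelium markers ran from 7.57 to 7.82 in WT buds and from 6.62 to 6.95 in WT skin, the dermal fibroblast markers from 10.78 to 11.09 and from 11.40 to 11.69, and the keratinocyte markers from 10.41 to 10.64 and from 10.11 to 10.25. Leukocyte, endothelium and erythroid markers were higher on every WT skin array than on any WT bud array. The control probe set for the middle part of 18S ribosomal RNA ran from 8.62 to 9.10 and from 6.90 to 7.63. The part of these values in the members' levels was not tested. Eif2d, a factor that can place transfer RNA on the small subunit, read 7.17, 6.84 and 6.79 in WT buds and 6.36, 6.54 and 6.36 in WT skin, a difference of -0.51 ± 0.17. Rps13 read 12.04, 12.003 and 12.47 against 11.64, 11.88 and 11.77, a difference of -0.41 ± 0.13. Eef2 read 12.08, 12.31 and 12.22 in WT skin, -0.40 ± 0.14 from WT buds. Eif5, which makes eIF2 hydrolyse its GTP, went the other way, with 7.81, 7.73 and 7.61 in WT buds and 8.30, 8.08 and 8.19 in WT skin, a difference of 0.48 ± 0.21. In these 4 the groups did not overlap. Eif2d, Eef2 and Eif5 are on a skin list and so were chosen through this very comparison. Their values are a description.

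Arrays within a skin group did not stand together. Over the 93 tested members of the lower list, the median deviation from a probe set's 15-array mean was 0.25, 0.17 and 0.25 on the WT bud arrays and -0.12, -0.03 and -0.09 on those labelled PTHrP-/-. It was -0.05, 0.20 and -0.03 in WT skin, -0.12, 0.11 and -0.15 in skin labelled K14WT, and -0.11, -0.19 and -0.05 in skin labelled K14-PTHrP. Over 26 members of the higher list, Rpl30 left out, it was -0.26, -0.14 and -0.09 in WT buds and 0.14, 0.11 and 0.16 in buds labelled PTHrP-/-. In skin it was 0.04, -0.14 and 0.17 for WT, 0.04, -0.22 and 0.11 for K14WT, and 0.06, -0.09 and 0.11 for K14-PTHrP. Replicate 2 of WT skin and replicate 2 of K14WT thus lay on the side of WT buds for both lists, and their fellow arrays lay nearer to buds labelled PTHrP-/-. Replicate 2 of K14-PTHrP lay below 0 for both lists. These skin arrays took no part in either bud list, but the members were split by those lists and the bud arrays enter the 15-array mean. A further 9 entries, on a bud list and a skin list, were also chosen with the WT skin arrays. The place of the skin arrays is therefore a description and no independent sign.

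Probe sets of 1 gene did not always share a sign. Of the 97 genes, 18 had more than 1 member probe set, and their differences had opposite signs in 6 genes in the bud comparison, in 9 between K14WT and WT skin and in 6 between K14-PTHrP and K14WT. These counts take the sign alone, however near 0. Rps29, for example, differed by -0.048 and 0.003 between K14WT and WT skin, where the median SE of a member was 0.13. The 6 genes of the bud comparison stand on both of the authors' lists, which set their signs there: Eif3i, Eif4a1, Mrpl13, Rpl37a, Rps29 and Rps6. Rps6, the small subunit protein that S6 kinase phosphorylates, read 12.01, 12.06 and 12.07 in WT buds and 11.55, 11.88 and 11.67 in buds labelled PTHrP-/- on probe set 1416141_a_at. On 1455981_at it read 9.06, 8.96 and 9.03 against 9.37, 9.35 and 9.58, so the groups did not overlap in either and the differences were -0.35 ± 0.17 and 0.42 ± 0.19. Its other 2 probe sets differed by 0.32 ± 0.20 and 0.27 ± 0.12. Mrpl13 differed by -0.26 ± 0.10 on 1424204_at and by 0.36 ± 0.12 and 0.39 ± 0.20 on its others. Eif3i differed by -0.40 ± 0.15 on 1416233_at and by 0.29 ± 0.12 on 1448264_a_at, neither of which is an _x_at probe set. For these 6 genes no single direction can be given.

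**Figure D4:**
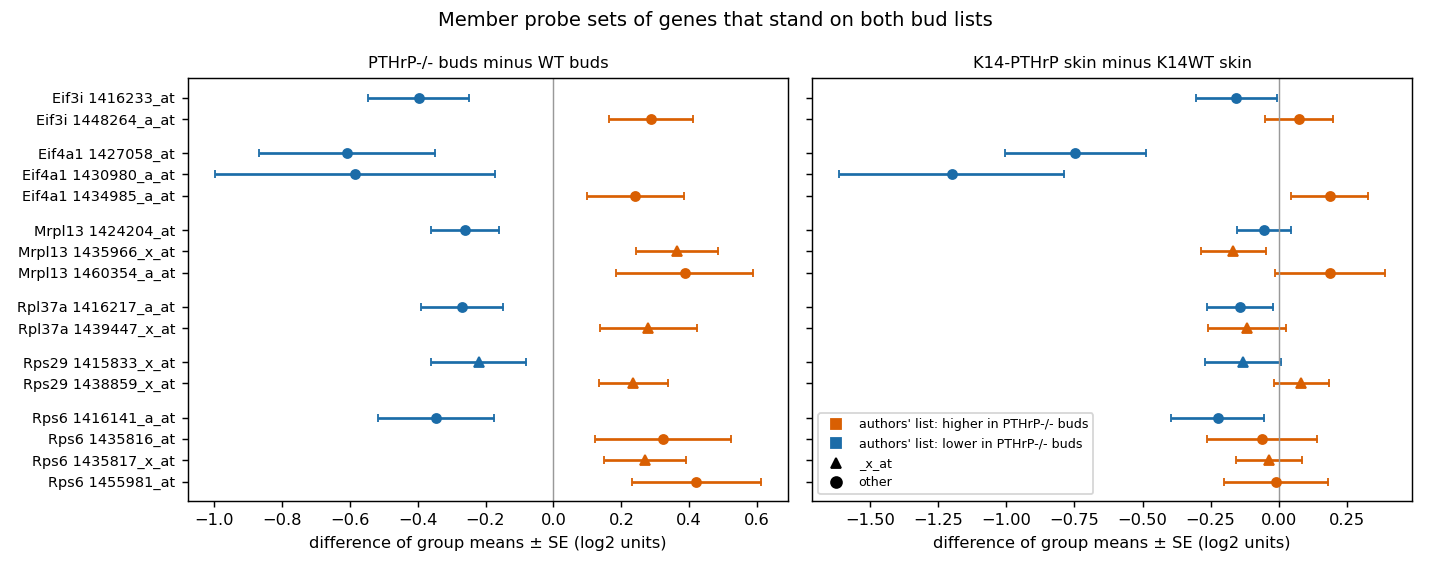
Difference of group means with the SE of the fit (log2 units, horizontal axis, 3 arrays per group; the panels have axes of their own) for each member probe set (vertical axis) of the 6 genes that stand on both bud lists; orange marks the authors' list of higher and blue the list of lower signal in buds labelled PTHrP-/-, and triangles mark _x_at probe sets. In the bud panel each gene has a probe set on either side of 0; in the skin panel 2 Eif4a1 probe sets at -1.20 and -0.75 stand furthest from 0.

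Other genes of protein synthesis were followed through a list of ribosome biogenesis factors, aminoacyl-tRNA synthetases, termination and mRNA-binding factors, other ribosomal genes and signalling genes. Names were given to 37 of them, 43 tested probe sets: 17 of 63 biogenesis genes, 9 of 59 synthetases, 6 of 19 termination and mRNA-binding genes, 3 of 4 other ribosomal genes and 2 of 15 signalling genes. Of the 43, 42 stand on a bud list, 6 of higher and 36 of lower signal, so the 37 that lay below 0 in buds labelled PTHrP-/- and their median of -0.39 restate that choice (54% of all tested probe sets lay below 0). In skin labelled K14-PTHrP against K14WT, 0 of the 43 passed in limma, against 0.71% of all tested probe sets. An unadjusted p under 0.05 was found for 5, all higher. Over all tested probe sets the share was 11.8% in either direction, with 808 of 11690 higher. The median was 0.11 against -0.01 over all tested probe sets, with 27 above and 16 below 0 against 51.5% below. The 3 with the smallest p there were Abcf1 (1452429_s_at, 0.75 ± 0.25), Nop53 (1451121_a_at, 0.71 ± 0.24) and Rars (0.38 ± 0.13), with limma adjusted p of 0.281, 0.293 and 0.315. The other probe sets of Abcf1 and Nop53 differed by 0.45 ± 0.25 and 0.28 ± 0.17. All 3 are also among the falls between K14WT and WT skin given below. Both comparisons use the same K14WT arrays, so the rise and the fall are not independent.

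Between K14WT and WT skin, 8 of the 40 of these probe sets on no skin list passed, lower in skin labelled K14WT in all 8, against 5.98% of all tested probe sets called lower and 1.39% higher. These 40 were named through the bud lists, and the bud arrays also enter the spread of the fit. No alternative fits are given for them. The synthetases Aars (alanyl), Cars (cysteinyl) and Rars (arginyl) fell by 1.49 ± 0.25, 1.09 ± 0.28 and 0.83 ± 0.13, with limma adjusted p of 0.00310, 0.0343 and 0.00234. The nucleolar factors Nop53 (1451121_a_at), Ddx56 and Nop56 fell by 1.14 ± 0.24, 0.97 ± 0.23 and 0.67 ± 0.15, with limma adjusted p of 0.0147, 0.0260 and 0.0198. The other Nop53 probe set (1423803_s_at) fell by 0.50 ± 0.17 and did not pass (limma adjusted p = 0.0952). Abcf1, which binds eIF2, fell by 0.96 ± 0.25 and 1.05 ± 0.25 on its probe sets, with limma adjusted p of 0.0364 and 0.0237. Ddit4, an inhibitor of mTORC1, is on a skin list, so its values are a description. Its mean level was 8.58 in WT buds, 7.03 in WT skin and 8.85 in skin labelled K14WT. The mean level of Aars was 7.38 in WT buds, 7.52 in WT skin, 6.03 in skin labelled K14WT and 6.52 in skin labelled K14-PTHrP.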

How the data were processed

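The deposited value table holds expression levels on a log2 scale for 15 arrays, which the authors normalized with GC-RMA, per the file headers. The submitters' processing notes list MAS5 and affy too, with no version. In the authors' deposited lists each group has a mean signal, an intensity on a linear scale, and each pair of means a signed fold; per the file headers they were chosen at a posterior probability above 0.95 and a false discovery rate under 5%, and the members' listed rates ran from 0.02% to 4.9%. For 116 of the 122 members the authors' table counts a present call on all 3 arrays of both bud groups. Only listed probe sets carry names, and current symbols came from a RefSeq table of GRCm38.p6 by Entrez ID.

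No further normalization was applied, since array medians ran from 3.86 to 4.05. The 64 control probe sets were left out. In R 4.3.3, a limma 3.58.1 model of 5 group means was fitted to the 15 arrays (lmFit, eBayes, 10 residual degrees of freedom, prior 3.09). Tests were two-sided, adjusted over all 11690 tested probe sets, and the script was tested on simulated data. The number of arrays limits the precision. Within groups the median SD ran from 0.11 (buds labelled PTHrP-/-) to 0.20 (skin labelled K14-PTHrP), so an SE from the common fit can be too large for buds and too small for K14 skin. No probe set's level is compared with another's. Tables and figures used Python 3.11.15, pandas 2.3.3 and matplotlib 3.10.9.

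The members, the translation list and the tests were chosen with earlier results of these data known. Named with values are members past the threshold in a tested comparison, up to 6 of the largest rises and falls per comparison among those whose arrays do not overlap, the 3 smallest p per class in the K14-PTHrP comparison, and genes on both bud lists; some are not described. Alternatives were other filters, quantile normalization, median centring, fits to 2 groups, a trended robust prior, leaving out _x_at probe sets, 1 probe set per gene, the replicate number as a block and leaving out each array. Leaving out the set-apart probe sets, and leaving out arrays for the class medians, were added after seeing the data. One result is not reported here.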

Additional observations from a re-analysis of the deposited data

How the results depend on the processing

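The number of members past the threshold was 0 between K14-PTHrP and K14WT skin under every alternative but leaving out arrays, where it ran from 0 to 2 (2 without K14WT replicate 1). Between K14WT and WT skin it was 4, and 2 with no filter, under quantile normalization, with the replicate block and without the set-apart probe sets; with each array left out it ran from 2 to 11 (8 without K14WT replicate 1, 11 without K14-PTHrP replicate 3). For the buds and for WT skin against WT buds the counts are a description, since the members were chosen through bud arrays that both use. For the buds the count was 0, against 0.0342% of all tested probe sets, and 3 when only the 2 groups were fitted. Between WT skin and WT buds it was 1 against 1.83%, 0 without the set-apart probe sets, and from 1 to 2 with each array left out. The shares over all tested probe sets under the alternatives are not given here. For the fall to 2 without the set-apart probe sets the removal of Rpl30 and the change in the adjustment are the construction; the cause of the other changes was not tested.

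Medians moved by more than the spread for the initiation factors in the buds (-0.36, then -0.28 under quantile normalization and -0.45 under median centring), for the mitochondrial ribosomal members between K14WT and WT skin (-0.21, then -0.056 under quantile normalization), and with arrays left out for the cytosolic members between K14WT and WT skin (-0.056 to 0.104) and the initiation factors between WT skin and WT buds (-0.220 to -0.048). Single differences near 0 between K14-PTHrP and K14WT turned sign: Eef1akmt1 (-0.07, then 0.0007 under median centring; -0.14 to 0.030 with arrays left out), Eef1d (-0.0348 to 0.26), Mrps12 (-0.246 to 0.023) and Mrps35 (-0.192 to 0.218).

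Replicate numbers recur in the groups, but deviations of arrays with the same number correlated with no common sign. For replicates 1, 2 and 3 they correlated at 0.31, 0.18 and -0.14 between the K14 groups and at -0.02, -0.05 and 0.26 between the bud groups. Between K14WT and WT skin the values were -0.01, 0.18 and 0.02, and between WT skin and WT buds 0.14, -0.04 and -0.11. Whether arrays with the same number share a batch was not tested. With the replicate block the counts were 0 for K14-PTHrP and 2 for K14WT against WT skin. As a description, they were 0 for buds and 1 for WT skin against WT buds.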
